A study of Homo sapiens with 12 samples.

Results

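Many messenger RNAs are destroyed in this order: the poly(A) tail is shortened, the 5′ cap is removed, and the body is degraded. This account describes the mRNAs that encode the machinery for those steps in Jurkat cells, a human leukaemia line of T-cell origin. A list of 38 genes was drawn up by complex, and each gene was read from 1 probe set of an Affymetrix array, the one naming that gene alone with the highest mean over the 12 arrays. Of the 38 genes, 37 had such a probe set, and all 37 passed the filter on low values that left 12824 of 19775 named genes for testing. PABPC4 was not analysed here, because its probe set also lists another gene. The 37 genes were 11 CNOT genes listed under the CCR4-NOT complex, 3 other poly(A) nuclease genes, 6 decapping genes, DDX6 and 4 partners. The others were 7 LSM ring subunits, 2 exonucleases, and 3 TOB or poly(A)-binding protein genes.

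Jurkat cells were transduced with a construct encoding the microRNA miR-21 or with the matching control vector, and grown in RPMI with 10% serum. From each construct 3 fractions were put on arrays: Total RNA, RNA purified with an AGO2 antibody (AGO2 IP) and RNA purified with control IgG (IgG IP). Each of the 6 groups had 2 arrays, numbered replicate 1 and 2. All groups share the Jurkat background and a transduced vector, the labels do not say whether a culture was a clone, and nothing in them says that replicates came from separate cultures, so p-values measure the spread between these samples only. Labelling started from 1 ug of RNA for Total RNA and 100 ng for both IP fractions. A difference between fractions therefore compares shares of the labelled RNA, not amounts of RNA recovered, and in a bulk culture fewer cells with a transcript and less of it per cell cannot be told apart.

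AGO2 is the Argonaute protein that holds a microRNA and pairs it with target mRNAs. GW182 (TNRC6) proteins then link AGO2 to the PAN2-PAN3 and CCR4-NOT deadenylases, after which DDX6, the LSM ring and the DCP1-DCP2 enzyme lead to decapping and XRN1 to degradation from the 5′ end. The arrays measure the mRNAs of these factors, not the proteins, so a gene's place in the AGO2 IP describes its own transcript. The microRNA delivered by the construct is shown here because its seed defines the comparison between constructs. It is printed 5′ to 3′ from RefSeq (GRCh38.p14, plus strand), with the seed, bases 2 to 8, in capitals for the mature form at chr17:59841273-59841294, and with the mature form in capitals for the hairpin of 72 bases at chr17:59841266-59841337.
hsa-miR-21-5p: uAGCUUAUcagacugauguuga
microRNA 21 hairpin: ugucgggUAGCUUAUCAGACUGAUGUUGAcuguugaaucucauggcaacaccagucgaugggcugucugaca
Probe sets that list the microRNA gene also list VMP1, so the level of miR-21 was not checked.

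The 12 arrays fell into separate levels by replicate number, with array medians of 3.55 to 3.67 (log2) in replicate 1 and 4.38 to 4.48 in replicate 2. All 13 T-cell and Jurkat markers were above the filter, at 4.46 to 12.5 in Total RNA, while B-cell markers passed for 2 of 5, monocyte markers for 1 of 5, erythroid markers for 2 of 4 and epithelial markers for 2 of 5. Replicate 2 had AGO2 IP arrays that lay close to the IgG IP array of the same construct: over the 12824 genes the SD of their difference was 0.18 (control vector) and 0.29 (miR-21), against 0.83 and 0.79 in replicate 1. Results that rest on the AGO2 and IgG arrays are therefore given by replicate. The 3′ minus 5′ signal of ACTB, a measure of RNA integrity, also differed by fraction and replicate. It was 1.35 to 1.38 in Total RNA, 2.08 to 2.18 in IgG IP and 1.97 to 4.0 in AGO2 IP of replicate 1, and 3.18 to 3.53, 2.57 to 3.48 and 2.08 to 2.58 in the same fractions of replicate 2. The same measure for GAPDH was 0.14 to 0.22, 0.44 to 0.46 and 0.35 to 1.95 in those fractions of replicate 1. In replicate 2 it was 0.58 to 0.71, 1.14 to 1.60 and 1.02 to 1.05. By GAPDH, Total RNA was thus the lowest fraction of replicate 2, which was not so by ACTB. The part of either signal in the differences below was not tested.

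The first question was which decay mRNAs were held at a higher or lower share in the AGO2 IP than in Total RNA. In a limma model that took replicate number as a block, 3 of 37 mRNAs were higher (CNOT4, DCPS and LSM14B) and 2 were lower (LSM7 and EDC4), each by 2.44- to 3.84-fold. That is 13.5% of the set, against 16.0% of all 12824 genes tested (4.71% higher, 11.3% lower), so the set was called at about the rate of the array as a whole. Without the block no gene of the array passed (adjusted p at least 0.366 over the set), although 4 of 37 members and 1230 of 12824 genes had an unadjusted p under 0.05. The median difference of the set was -0.08 log2 units and that of all genes -0.05, and with cyclic loess scaling these became 0.05 and 0.03. The blocked count of 5 was 4 with each array centred on its median and 2 (DCPS and LSM14B) with cyclic loess, which also changed the split of all called genes from 604 higher and 1447 lower to 619 and 788. The block model lost all calls of the set without either miR-21 AGO2 IP array or without either Total RNA array of replicate 2. It lost nearly all calls over the whole array in the same settings, so the loss was not particular to the set. Part of the calls, in the set and over the array, was lost without the control vector AGO2 IP array of replicate 1.

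**Figure D1:**
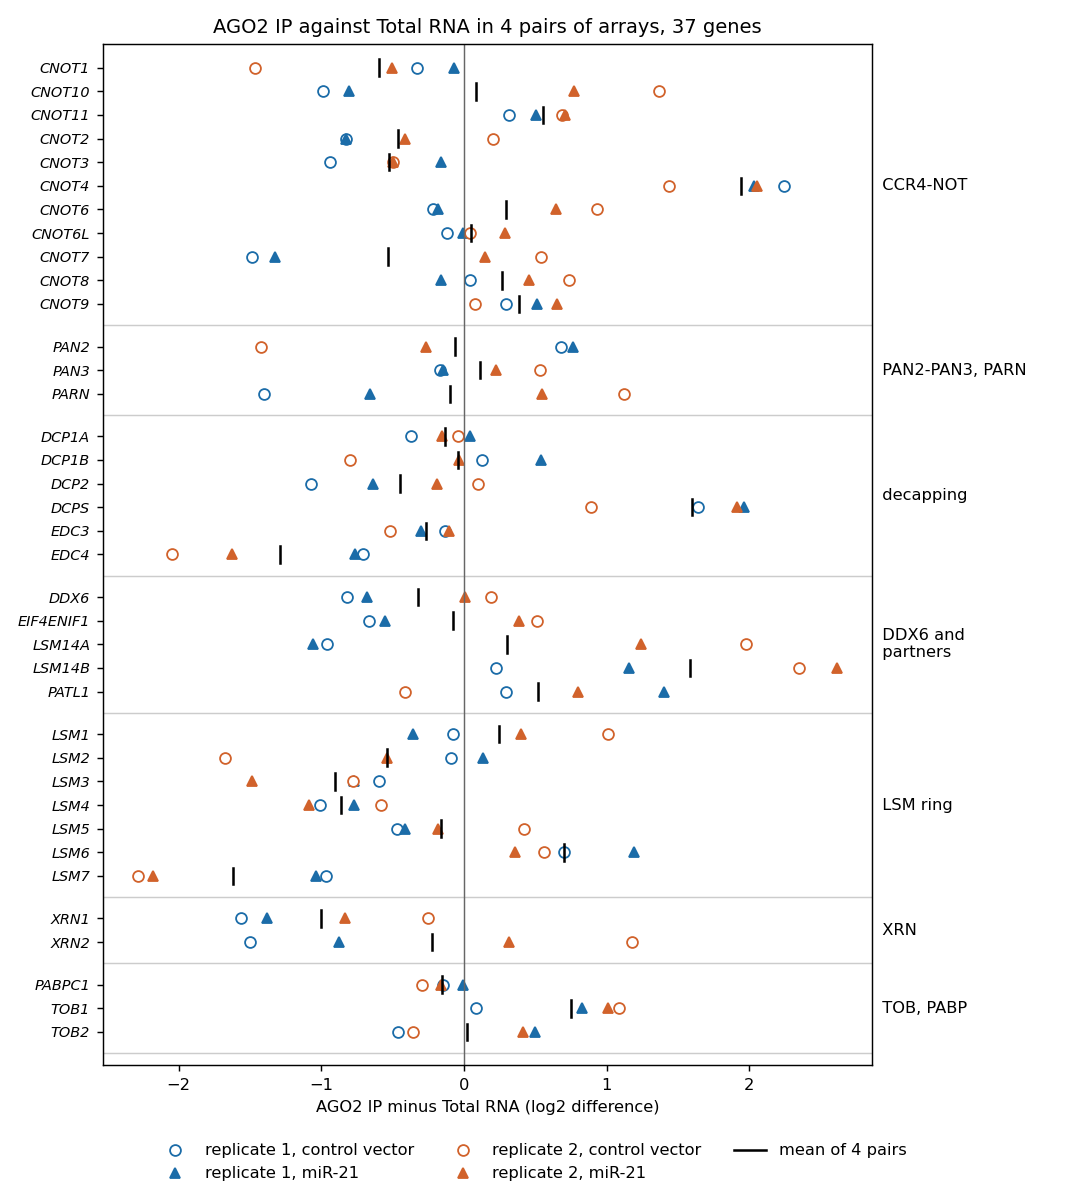
The log2 difference between AGO2 IP and Total RNA is plotted for the 37 genes in 4 pairs of arrays of the same construct and replicate, with a black bar at the mean. CNOT4 and DCPS lie right of 0 and LSM7 and EDC4 left of 0 in all 4 pairs, while LSM14A, CNOT10 and PARN lie left in replicate 1 (blue) and right in replicate 2 (orange).

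Direction was shared by the 4 pairs of arrays for 16 of 37 genes, 7 higher and 9 lower (18.9% and 24.3% of the set), against 14.1% and 23.8% of all genes tested. Each replicate was also tested alone, in a model of its 6 arrays with fraction and construct as terms and 2 residual degrees of freedom. The 2 constructs stand in for replicates there. Its p-values thus measure how far the fraction differences vary between constructs within 1 replicate number, not the spread between replicates. Within replicate 1, 4 members were higher and 14 lower (36.3% of all genes called), and within replicate 2, 9 were higher and 6 lower (35.2% of all genes called). CNOT4 and DCPS were called higher, and EDC4, LSM3, LSM4 and LSM7 lower, in both replicates: 6 members, 16.2% of the set against 13.1% of all genes. Another 3 members, CNOT10, LSM14A and PARN, were called in opposite directions in the 2 replicates, 8.11% of the set against 2.85% of all genes.

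CCR4-NOT is the main cytoplasmic deadenylase, built on the scaffold CNOT1 with the nucleases CNOT6, CNOT6L, CNOT7 and CNOT8. One of the 11 mRNAs listed under it was called higher in the AGO2 IP and none lower. This was CNOT4, which encodes a RING-type ubiquitin ligase. CNOT4 read 6.67 and 6.83 in Total RNA, 5.87 and 6.16 in IgG IP and 8.92 and 8.86 in AGO2 IP of replicate 1, control vector first. The same order of arrays gave 7.73 and 7.76, 9.09 and 9.89, and 9.17 and 9.81 in replicate 2. All 4 AGO2 IP arrays were thus above all 4 Total RNA arrays, whereas IgG IP was at the bottom in replicate 1 and level with AGO2 IP in replicate 2. The difference from Total RNA was 1.94 ± 0.55 log2 units (SE, 3.84-fold, adjusted p = 0.0445 with the block), with an SE of 0.91 and an adjusted p of 0.566 without it. Over 18 block settings the adjusted p ranged from 0.0153 to 0.166, and besides the 4 arrays named above the call was lost without either Total RNA array or the control vector AGO2 IP array of replicate 1. CNOT4 has 4 other probe sets, which gave 1.95, 1.47, 0.82 and -0.01, so they do not all move alike.

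The remaining 10 CCR4-NOT mRNAs differed by -0.59 to 0.55 log2 units, and the median of the 11 was 0.09. CNOT1 had the lowest value, -0.59 ± 0.25 (adjusted p = 0.135 with the block), and was negative in all 4 pairs, from -1.46 to -0.07. Of its 2 other probe sets, 1 gave -0.52 and the other 1.00, in the opposite direction. CNOT11, which joins CNOT10 in a module at one end of the scaffold, was positive in all 4 pairs, from 0.31 to 0.71, with 0.55 ± 0.19 (adjusted p = 0.074). Its partner CNOT10 had pairs of -0.99 and -0.80 in replicate 1 and of 1.37 and 0.77 in replicate 2. The nuclease CNOT7 showed the same split, at -1.49 and -1.32 in replicate 1 against 0.54 and 0.15 in replicate 2. The CNOT6L probe set used stayed near 0 in every pair (-0.12 to 0.29). Its other probe sets gave -0.88, -0.45, 0.55 and 0.16, so they do not all stay near 0.

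PAN2 and PAN3 form the deadenylase thought to trim long tails first, and PARN is a separate poly(A) nuclease. None of the 3 passed with the block, and their differences of -0.10 to 0.11 averaged replicates that differed more. PARN stood at 7.20 and 7.68 in AGO2 IP against 8.61 and 8.33 in Total RNA of replicate 1, and at 10.45 and 9.90 against 9.33 and 9.35 in replicate 2. Its replicate differences were -1.03 (adjusted p = 0.0157) and 0.83 (adjusted p = 0.0265). PAN2 moved the other way, with 0.72 in replicate 1 (adjusted p = 0.0332) and -0.84 in replicate 2 (adjusted p = 0.0722). PAN3 had pairs between -0.17 and 0.53.

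Among the 6 decapping mRNAs, 1 was higher and 1 lower. DCPS encodes the scavenger enzyme that hydrolyses the cap left after degradation from the 3′ end. Its values in Total RNA were 7.36 and 7.46 in replicate 1 and 7.42 and 7.21 in replicate 2. The AGO2 IP arrays gave 9.0 and 9.43, then 8.31 and 9.12, and the IgG IP arrays 7.97 and 7.98, then 8.18 and 9.43. AGO2 IP and IgG IP were thus above Total RNA in every array, and the level in Total RNA was nearly the same in both replicates. DCPS was higher in AGO2 IP than in Total RNA by 1.60 ± 0.32 (3.03-fold, adjusted p = 0.0185 with the block, 0.366 without). Over the 18 block settings its adjusted p was 0.00331 to 0.0847.

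EDC4 encodes the scaffold that holds the decapping enzyme and its activators together. Total RNA arrays read 6.96, 7.09, 7.61 and 7.40, with replicate 1 first and the control vector first in each. In the same order IgG IP read 6.64, 6.79, 5.85 and 6.11, and AGO2 IP 6.25, 6.33, 5.56 and 5.78. The AGO2 IP values lay below the IgG IP value of the same construct and replicate in all 4 pairs, by 0.29 to 0.47, and all 8 IP arrays were below all Total RNA arrays. EDC4 fell by 1.29 ± 0.28 log2 units from Total RNA to AGO2 IP (2.44-fold, adjusted p = 0.0219 with the block, 0.366 without), with adjusted p-values of 0.0201 to 0.0967 over the block settings. DCP2, the catalytic subunit, differed by -0.45 ± 0.23 (adjusted p = 0.215), and its 3 other probe sets gave 0.89, 0.80 and 0.22. DCP1A, DCP1B and EDC3, an activator, a paralog and an enhancer of the enzyme, differed by -0.13, -0.04 and -0.27.

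**Figure D2:**
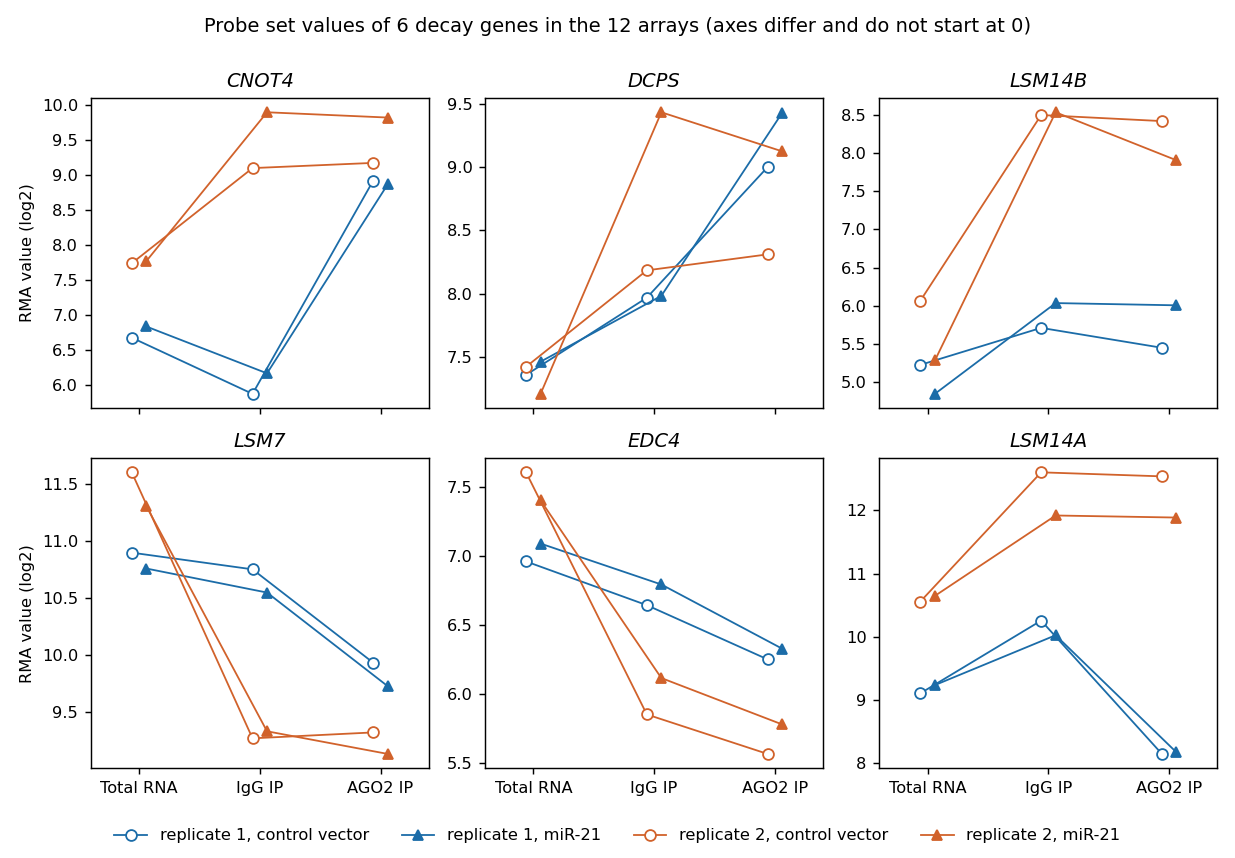
RMA values (log2) are drawn for 6 genes in Total RNA, IgG IP and AGO2 IP, with replicate 1 in blue, replicate 2 in orange, open circles for the control vector and filled triangles for miR-21. CNOT4 is near 6 in IgG IP of replicate 1 but at 9.09 and 9.89 in replicate 2, and LSM14A drops to 8.15 and 8.18 in AGO2 IP of replicate 1 only.

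DDX6 is the helicase that couples deadenylation to decapping and translational repression, and PATL1, LSM14A, LSM14B and EIF4ENIF1 (4E-T) bind it. LSM14B was the 1 mRNA of these 5 that passed, and it was higher. Total RNA gave 5.23 and 4.85 in replicate 1 and 6.07 and 5.29 in replicate 2, while AGO2 IP gave 5.45 and 6.01, then 8.41 and 7.90. IgG IP was at least as high in all 4 pairs, with 5.71 and 6.04, then 8.49 and 8.53. The gain over Total RNA was 1.59 ± 0.42 (3.0-fold, adjusted p = 0.0364 with the block, 0.702 without), made of 0.69 in replicate 1 (adjusted p = 0.0766) and 2.48 in replicate 2 (adjusted p = 0.00209). Other LSM14B probe sets gave smaller values of 0.99, 0.36, 0.22 and 0.10, and the mean over all 5 was 0.65 (adjusted p = 0.0933). The adjusted p over the block settings was 0.0316 to 0.142, and the call was also lost without the control vector AGO2 IP array of replicate 2 (0.0693).

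The paralog LSM14A had the widest gap between replicate differences of the 37 mRNAs. Its mRNA read 9.11 and 9.24 in Total RNA, 10.26 and 10.03 in IgG IP and 8.15 and 8.18 in AGO2 IP of replicate 1. Replicate 2 gave 10.56 and 10.65 in Total RNA, 12.60 and 11.92 in IgG IP and 12.53 and 11.88 in AGO2 IP. AGO2 IP was therefore the lowest fraction in replicate 1 and stood with IgG IP above Total RNA in replicate 2, at -1.01 (adjusted p = 0.00776) and 1.61 (adjusted p = 0.00499). DDX6 itself was lower in replicate 1, by 0.75 on the log2 scale in AGO2 IP (8.67 and 8.93 against 9.49 and 9.61), and differed by 0.10 in replicate 2. PATL1 gave 0.52 ± 0.27 (adjusted p = 0.226), and EIF4ENIF1 -0.08.

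The LSM ring caps the 3′ end of deadenylated mRNA and stimulates decapping. LSM1 marks the cytoplasmic ring, while LSM2 to LSM7 also serve the nuclear ring that binds U6 RNA. With a median of -0.54, 5 of 7 mRNAs had a difference below 0, and the median was -0.45 under cyclic loess with the same 5 of 7. One passed in the block model: LSM7, at 10.90 and 10.76 in Total RNA of replicate 1, 11.60 and 11.31 in replicate 2, and 9.93, 9.72, 9.32 and 9.13 in AGO2 IP. IgG IP stayed near Total RNA in replicate 1 (10.75 and 10.55) and joined AGO2 IP in replicate 2 (9.26 and 9.33). LSM7 fell by 1.62 ± 0.37 log2 units (3.07-fold, adjusted p = 0.0246 with the block, 0.366 without). Over the block settings its adjusted p was 0.022 to 0.104, and it missed the threshold also without the control vector AGO2 IP array of replicate 1 (0.0513).

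LSM3 and LSM4 were called lower within both replicates but missed the threshold in the block model. LSM4 read 9.88, 9.82, 10.41 and 10.40 in Total RNA and 8.87, 9.05, 9.83 and 9.32 in AGO2 IP, a difference of -0.86 ± 0.26 (adjusted p = 0.0511). Other LSM4 probe sets gave -1.08 and 0.20, the second in the opposite direction. LSM3 read 10.18, 10.18, 11.62 and 11.73 in Total RNA and 9.59, 9.41, 10.84 and 10.24 in AGO2 IP, a difference of -0.91 ± 0.29 (adjusted p = 0.0621). Both were lower in all 4 pairs. LSM6 was the exception in direction, with pairs from 0.36 to 1.19 and a mean of 0.70 ± 0.26 (adjusted p = 0.0936). LSM1, LSM2 and LSM5 gave 0.24, -0.54 and -0.16.

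XRN1, the cytoplasmic exonuclease that degrades decapped mRNA, read 7.06 and 7.43 in Total RNA and 5.49 and 6.05 in AGO2 IP of replicate 1, then 8.35 and 8.26 against 8.10 and 7.43 in replicate 2. Its difference of -1.01 ± 0.31 had the same sign in all 4 pairs but did not pass with the block (adjusted p = 0.0556). XRN2, its nuclear relative, was at -1.19 in replicate 1 and 0.75 in replicate 2. TOB1 and TOB2 encode antiproliferative proteins that bridge CCR4-NOT and poly(A)-binding protein. TOB1 gave 0.75 ± 0.30 (adjusted p = 0.12), with pairs from 0.08 to 1.08, and the mean of its 2 probe sets gave 1.26 (adjusted p = 0.0452). TOB2 differed by 0.02 and PABPC1, the main cytoplasmic poly(A)-binding protein, by -0.15.

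The comparison with IgG asks how much of a difference belongs to the AGO2 antibody rather than to any purification on beads. No member and no gene of the array passed, with or without the block (lowest adjusted p of the set 0.819 with the block). Unadjusted p-values under 0.05 were found with the block for 2 of 37 members and 663 of 12824 genes, and without it for 0 and 29. Tested alone, replicate 1 gave 5 members higher and 8 lower, 35.1% of the set against 24.0% of all genes (12.5% higher, 11.5% lower). Replicate 2 gave none of any gene, with 0 members and 47 genes at an unadjusted p under 0.05 and member differences between -0.35 and 0.26.

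Within replicate 1 the 5 higher mRNAs were CNOT4 (2.87, adjusted p = 0.00036), DCPS (1.24), PAN2 (1.11), CNOT9 (1.02), which encodes the subunit that binds GW182 proteins, and CNOT6L (0.67). The 8 lower ones were LSM14A (-1.98, adjusted p = 0.00109), PARN (-1.48), LSM4 (-1.11), LSM3 (-0.96), LSM7 (-0.82), XRN2 (-0.82), CNOT7 (-0.73) and LSM5 (-0.71). The lower ones held 4 of the 7 LSM ring subunits. Both constructs showed these differences: CNOT4 differed by 3.05 and 2.70, LSM14A by -2.11 and -1.85 and LSM4 by -1.18 and -1.03, control vector first. ACTB 3′ minus 5′ was 4.0 in the control vector AGO2 IP array of that replicate and 1.97 in the miR-21 one, against 2.08 to 2.18 in IgG IP. LSM14A had 2 further probe sets, at -1.83 and -1.36.

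The direction was the same in all 4 pairs for 6 of 37 mRNAs, 2 higher and 4 lower (5.41% and 10.8% of the set), against 5.63% and 13.1% of all genes. A further setting left out 1 array of each close pair in replicate 2 (AGO2 IP of the control vector, IgG IP of miR-21). The block model then gave differences from IgG of 2.31 for CNOT4, 1.11 for DCPS and -1.01 for LSM4. These arrays were picked for the closeness of AGO2 IP to IgG IP, which is the difference measured here. Leaving them out gives replicate 1 more weight, so the values are no further support. Against Total RNA the same omission gave 2.26 for CNOT4 and 1.76 for DCPS, while LSM14B fell to 1.22 from 1.59 with all arrays. These and the next values are sizes and not calls. EDC4 was at -1.14, LSM3 at -0.96, LSM4 at -1.02, LSM7 at -1.52 and XRN1 at -1.29.

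**Figure D3:**
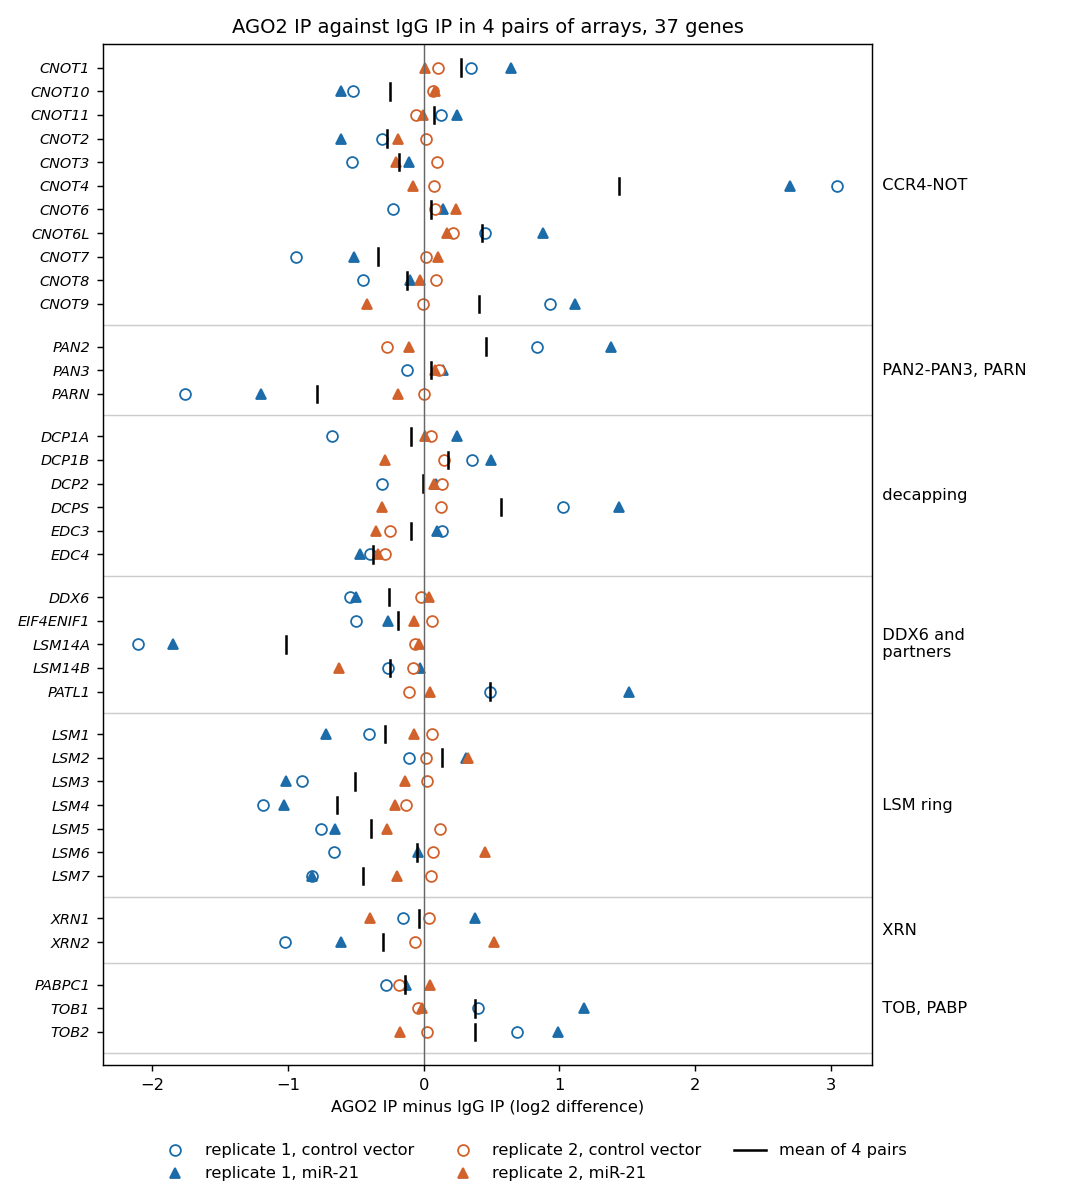
The log2 difference between AGO2 IP and IgG IP is plotted for each of the 37 genes in 4 pairs of arrays, with a black bar at the mean. The orange points of replicate 2 stay between -0.63 and 0.52, whereas the blue points of replicate 1 run from -2.11 (LSM14A) to 3.05 (CNOT4).

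IgG IP was also set against Total RNA, which shares its Total RNA arrays with the first comparison. No member passed with the block (lowest adjusted p 0.065, for LSM14B at 1.83 ± 0.42), where 1.92% of all genes did, and none passed without it. At an unadjusted p under 0.05 there were 10 members and 2524 genes with the block and 4 members and 437 genes without. For DCPS and EDC4 the values were 1.03 and -0.92, beside 1.60 and -1.29 in AGO2 IP, and for LSM7 -1.17 beside -1.62. CNOT4 was at 0.50 beside 1.94. Within replicate 1, 3 members passed (3.77% of all genes): LSM6 (1.30) and LSM14A (0.97) higher and XRN1 (-1.58) lower. Within replicate 2, 8 passed higher and 5 lower (31.3% of all genes), among them LSM14B (2.83), CNOT4 (1.74), LSM14A (1.66), LSM7 (-2.16) and EDC4 (-1.53).

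The constructs were compared within each fraction, 2 arrays against 2. No gene of the array passed in any fraction, with or without the block. At an unadjusted p under 0.05 with the block there were 0 members and 3 genes in Total RNA, 1 member and 353 genes in AGO2 IP, and 1 member and 123 genes in IgG IP. Without the block there were 0 members in any fraction, and 0, 11 and 4 genes. The set had median differences of 0.03 in Total RNA, 0.08 in AGO2 IP and 0.00 in IgG IP, beside 0.02, 0.07 and 0.04 for all genes. Both replicates had the same sign for 14 members higher and 8 lower in Total RNA, 13 and 4 in AGO2 IP, and 9 and 12 in IgG IP. Over all genes those shares were 29.1% and 21.7%, 29.5% and 16.7%, and 30.4% and 23.3%.

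In Total RNA 36 of the 37 differences between miR-21 and the control vector lay between -0.23 and 0.27. LSM14B stood outside at -0.58, with -0.38 in replicate 1 and -0.78 in replicate 2. In AGO2 IP the decapping activator PATL1 had the highest value, 1.13 ± 0.38 (SE with the block). PATL1 read 8.13 and 7.78 in the control vector AGO2 IP arrays and 9.14 and 9.02 in the miR-21 ones. Its IgG IP arrays gave 7.64 (control vector) and 7.63 (miR-21) in replicate 1 and 7.89 and 8.97 in replicate 2, and its Total RNA arrays 7.84 and 7.74, then 8.19 and 8.22. The miR-21 value was therefore the higher one in AGO2 IP of both replicates and in IgG IP of replicate 2, and differed by at most 0.09 in Total RNA. PAN2 (0.89), CNOT1 (0.77), TOB2 (0.73) and DCP1B (0.64) were positive in AGO2 IP of both replicates, and CNOT1, TOB2 and DCP1B also in IgG IP of both (0.67, 0.68 and 0.79). Tests of whether the construct difference depended on the fraction, 3 per gene, called 0 members, and 0 had an unadjusted p under 0.05 with or without the block.

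**Figure D4:**
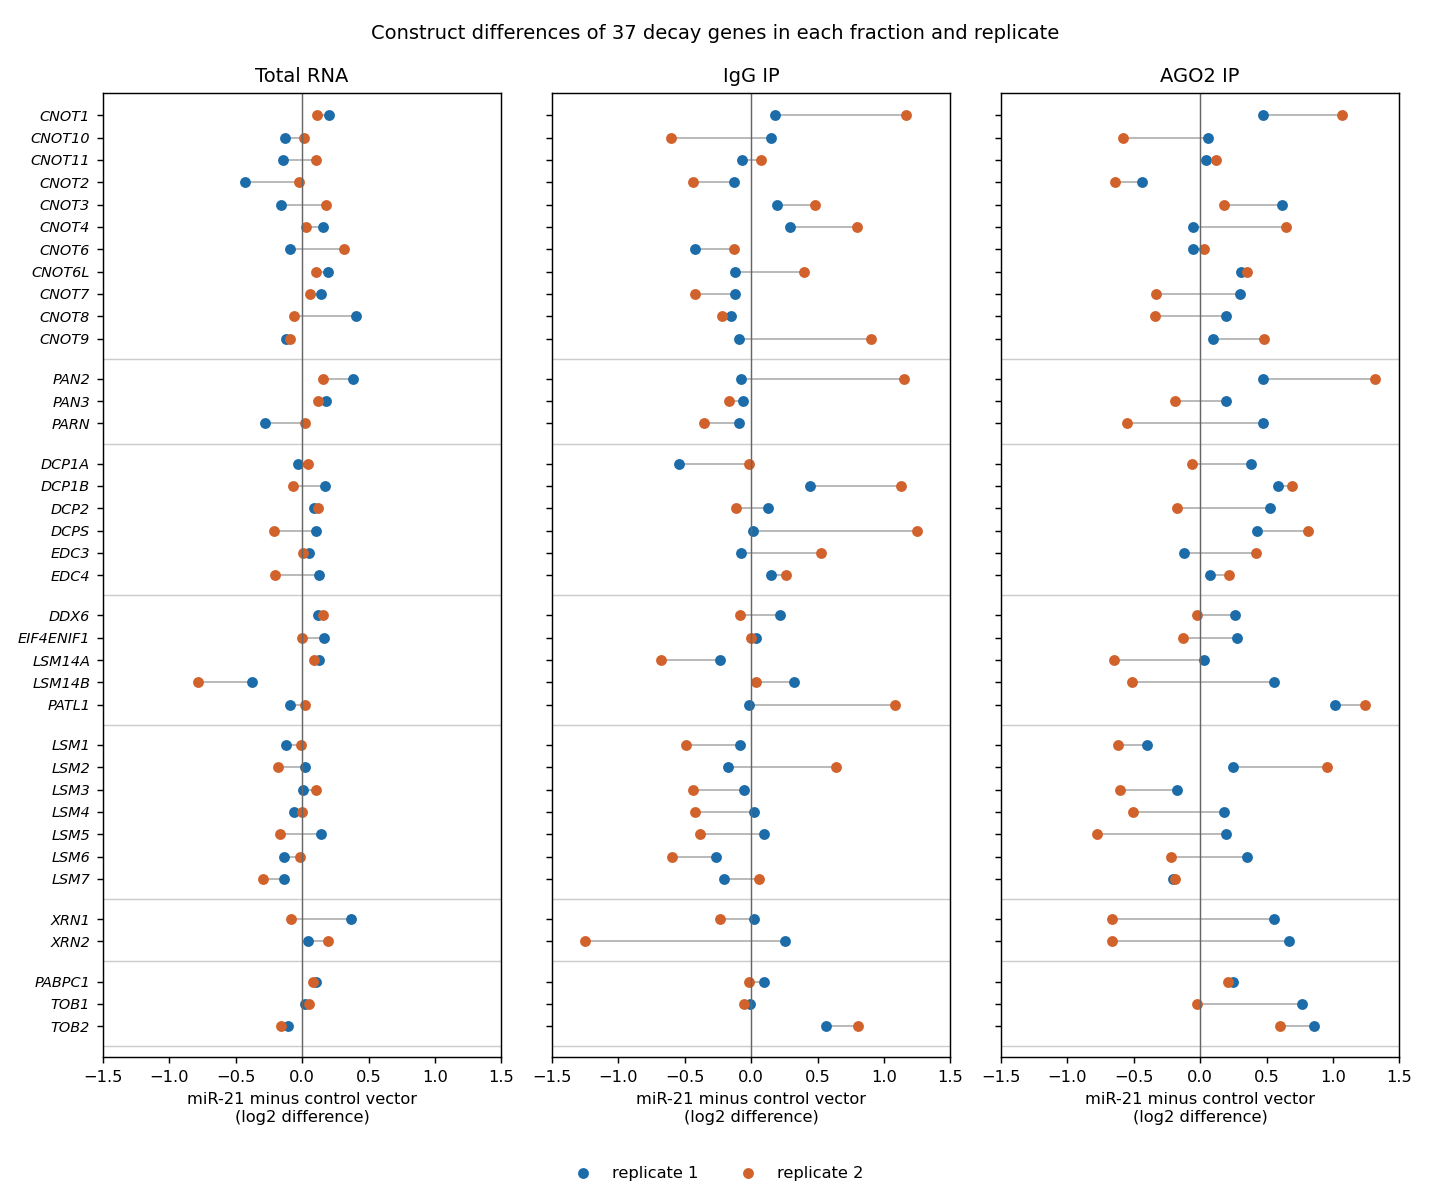
Each row shows a gene's log2 difference between miR-21 and control vector cells in Total RNA, IgG IP and AGO2 IP, with replicate 1 in blue and replicate 2 in orange. Points in Total RNA stay between -0.78 and 0.41, and PATL1 reaches 1.01 and 1.24 in AGO2 IP.

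Other genes of mRNA decay were read from lists drawn up beside the set, and their counts stand against 16.0% of all genes called with the block (4.71% higher, 11.3% lower) and 1407 of 12824 genes with the block and cyclic loess. The exosome and SKI genes, which degrade mRNA from the 3′ end, had 0 of 17 called between AGO2 IP and Total RNA with the block and a median of -0.40, with 13 of 17 below 0. With cyclic loess 1 of the 17 was higher, and with median centring 1 was lower. Of 10 genes of nonsense-mediated decay, 6 were tested, and all 6 were below 0 with a median of -0.74. UPF2 (-1.30, adjusted p = 0.0162), SMG5 (-1.04, adjusted p = 0.0309) and UPF1 (-0.92, adjusted p = 0.0468) were called lower, and 1 of the 6 was with cyclic loess. A list of adaptors and related regulators, not all of which link mRNAs to the deadenylases, had a median of 0.04. Of its 19 tested genes, 4 were higher and 1 lower. The higher ones were the cap-binding repressor EIF4E2 (1.98), the AU-rich element binding protein ZFP36 (1.81), BTG3 (1.09) and PNRC1 (0.73), and the lower one was the helicase HELZ (-1.38). With cyclic loess 3 were higher and 1 lower. IgG IP against Total RNA gave the named genes the same directions. The medians there were -0.51 for nonsense-mediated decay and -0.26 for exosome and SKI genes. UPF2 was at -0.96, SMG5 at -0.69, UPF1 at -0.74 and HELZ at -1.16. EIF4E2 was at 0.82, ZFP36 at 0.86, BTG3 at 0.44 and PNRC1 at 0.38. Since no gene passed between AGO2 IP and IgG IP, these differences cannot be assigned to the AGO2 antibody.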

How the data were processed

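The authors deposited log2 values, made with RMA per the submitters' processing notes, for 54675 probe sets in 12 arrays; whether both replicates were normalised together is not given in the sources used here. Probe sets were named through the platform annotation and current RefSeq symbols (41037 of 41091 single-symbol probe sets matched). Each gene was read from its highest probe set and tested where its mean reached 4.02, the median over non-control probe sets. Limma 3.58.1 in R 4.3.3 fitted 6 group means over 12 arrays, with Benjamini-Hochberg adjustment over 12824 genes and calls at 0.05. The same model was refitted with the replicate number as a block. Same-numbered arrays deviated together from their group means in all 15 pairs of groups (correlation across genes 0.468 to 0.873). The block was thus taken from the data rather than the labels. A batch shared by all arrays of a number would give such correlations too, so they do not show that same-numbered arrays came from the same culture. The number of arrays limits the precision. Named members were those called with or without the block, plus up to 3 per complex by size against Total RNA and up to 2 against IgG, and some others are named to complete a complex, a within-replicate call or a construct comparison. The members and lists were chosen with earlier results of these data known. The script was tested on simulated data. Alternatives were other scalings, filters and probe set rules, left-out arrays and each replicate alone.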

Additional observations from a re-analysis of the deposited data

How the results depend on the processing

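The count of members called between AGO2 IP and Total RNA was 0 without the block and 5 with it. With the block it was 4 after median centring, 2 after cyclic loess and 4 with the mean of all probe sets. It was 3 with no filter and 6 with a stricter filter. Calls over all genes went from 604 higher and 1447 lower to 526 and 1461 with median centring and 619 and 788 with cyclic loess. The filter and probe set settings have no count over all genes here, so their counts do not set the members apart from the array. A further setting left out 2 arrays of replicate 2 (AGO2 IP of the control vector, IgG IP of miR-21). It left 1 array in 2 groups, so its count is not given. Leaving out 1 array at a time moved the count in both directions, with the lone array of a group assumed to vary like the other groups. All calls of the set were lost without either miR-21 AGO2 IP array or either Total RNA array of replicate 2. Part was lost without the control vector AGO2 IP array of replicate 1. More members passed without that of replicate 2 or without either miR-21 IgG IP array. In each of these settings the calls over all genes moved the same way. Within replicate 1 the count of members was 18 (36.3% of all genes called) and within replicate 2 it was 15 (35.2% of all genes called). Over 18 block settings DCPS was called in 14, EDC4 in 13, LSM7 in 12, LSM14B in 10 and CNOT4 in 7, none with a change of sign. The settings without 1 IgG IP array or with another filter kept the AGO2 IP minus Total RNA differences as they were. Only the SE and the adjustment changed there, so calls kept in them do not test the differences again. Against IgG the count was 13 within replicate 1 (24.0% of all genes). It rose above 0 in the set and over all genes without the 2 arrays of replicate 2 named above. For IgG IP against Total RNA the count was 1 with cyclic loess and the block (1.68% of all genes). It was 3 within replicate 1 (3.77%) and 13 within replicate 2 (31.3%). Of the settings with 1 array left out, only those without a control vector AGO2 IP array brought a call, of LSM14B, and more calls over all genes. The block changed no other count, and all counts for the constructs and their interaction were 0 in all settings run. Signs turned in a called value for CNOT10 (-0.90), LSM14A (-1.01) and PAN2 (0.72) within replicate 1 and PARN (0.83) within replicate 2, all AGO2 IP minus Total RNA; the cause was not tested. Other changes of sign were counted per named member, contrast and setting, where the value missed the threshold without the block, with it and in the changed setting. There were 58 such cases beside these, and 154 with 1 array left out. The low signal of CNOT3 left it out of the stricter filter.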
